A study of Mus musculus with 18 samples.

Results

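The protein components of the cytosolic ribosome were followed through 6 mouse RNA-seq libraries. Members were taken by name: every row of the expression table whose RefSeq transcript belongs to a symbol of the form Rpl or Rps plus a number, to Rplp0, Rplp1 or Rplp2, or to Rpsa. Ribosomal protein S6 kinases (Rps6k), Rps19bp, Rpl7l and symbols ending in ps and a number were left out. The rule found 103 transcripts of 29851, which belong to 88 genes of 23421. Of these genes, 35 carry small-subunit names and 53 carry large-subunit names, and 11 have several transcripts in the table.

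The study examined how Polycomb, through methylation of histone H3 lysine 27, bears on transcription in embryonic stem (ES) cells and in embryoid bodies (EBs), the aggregates that ES cells form as they differentiate. All libraries come from cells of 129/Ola background kept in 15% serum, 1 library per group. Line E36 gave ES cells with leukemia inhibitory factor, wild type or labelled Eed KO. It also gave EBs of both labels, made by withdrawal of that factor, 48 hours in hanging drops and 0.5 µM all-trans retinoic acid from day 2 to day 5, and cultured to day 9. Line E14, grown as ES cells, gave a control hairpin library (shCtrl) and a Setd2 hairpin library (shSetd2), both from lentivirus and puromycin selection and harvested on day 4 after selection. The labels give neither the Eed allele nor a clone, and an EB library mixes whatever cell types the aggregate holds.

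Each cytosolic ribosome joins a small subunit, which reads the messenger RNA, to a large subunit, which forms peptide bonds. Their proteins are made in near-equal numbers, and their genes are among the most strongly transcribed of any proliferating cell. The messenger RNAs of this family typically begin with a C followed by a run of pyrimidines, the 5′ terminal oligopyrimidine (TOP) tract, through which mTOR signalling and Larp1 control their translation. ES cells are known for a high rate of ribosome production, driven in part by Myc and Mycn.

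That start sequence can be read in the reference. RefSeq promoter windows (build GRCm38.p6) were found for 67 of the 88 genes. A C at the annotated start followed by at least 4 C or T bases stood in 15 of the 67 genes (22.4%), against 3.01% of all 27025 genes with a window and 3.19% of those expressed here. A C followed by such a run lay within 20 bases either side of the start in 79.1% of the members, 49.9% of all genes and 51.9% of expressed genes. Over the whole window of 300 bases and on both strands, the ETS family motif CCGGAAG stood in 38.8% of the members, 9.93% of all genes and 18.4% of expressed genes. The shares in members, all genes and expressed genes were 13.4%, 7.28% and 7.85% for the YY1 motif AAGATGG. They were 11.9%, 15.7% and 9.21% for TATAAA (the TATA box) and 8.96%, 8.09% and 11.5% for CACGTG (the E box), so that the members lay between both backgrounds for each of these. CCGGAAG and AAGATGG can overlap in the letters AAG, and a match describes the sequence alone. The 10 windows below run 5′ to 3′ from 50 bases before the annotated start to 20 bases from it, so that base 51 is the annotated first base. That start is the RefSeq one and was not mapped in these cells, so the shares at the start depend on the annotation. Capitals mark the longest run of at least 5 C or T bases near the start, or the first of equally long ones, as in Rps27l. Rps6, Rps18, Rpl28 and Rplp2 are shown because their runs include the annotated start and have a C at that base. Rplp0, Rps12 and Rps2 are shown because, with Rplp2, they had some of the lowest EB levels relative to ES cells among abundant members, and Rpl10l, Rpl39l and Rps27l because they were the members called lower in EBs labelled Eed KO in both readings given below.
Rps6: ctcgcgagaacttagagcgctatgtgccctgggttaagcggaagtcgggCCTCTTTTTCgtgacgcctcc
Rps18: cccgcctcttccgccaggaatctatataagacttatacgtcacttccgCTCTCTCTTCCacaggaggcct
Rpl28: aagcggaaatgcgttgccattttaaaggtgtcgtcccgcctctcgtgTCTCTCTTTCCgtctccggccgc
Rplp2: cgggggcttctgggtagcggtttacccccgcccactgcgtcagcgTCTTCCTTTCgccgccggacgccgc
Rplp0: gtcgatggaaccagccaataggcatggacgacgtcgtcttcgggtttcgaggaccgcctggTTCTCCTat
Rps12: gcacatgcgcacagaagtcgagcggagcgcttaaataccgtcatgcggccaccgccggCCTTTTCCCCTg
Rps2: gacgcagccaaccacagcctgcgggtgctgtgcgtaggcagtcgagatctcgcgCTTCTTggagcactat
Rpl10l: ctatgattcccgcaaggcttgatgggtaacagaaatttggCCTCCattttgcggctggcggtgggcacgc
Rpl39l: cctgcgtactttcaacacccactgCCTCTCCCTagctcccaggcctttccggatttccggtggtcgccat
Rps27l: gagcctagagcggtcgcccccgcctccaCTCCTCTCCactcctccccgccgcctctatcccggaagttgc

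The windows lie at chr4:86857348-86857417 (minus strand) for Rps6, chr17:33955646-33955715 (minus) for Rps18, chr7:4792915-4792984 (plus) for Rpl28 and chr7:141447601-141447670 (plus) for Rplp2. Rplp0 is at chr5:115559417-115559486 (plus), Rps12 at chr10:23787190-23787259 (minus) and Rps2 at chr17:24720013-24720082 (plus). Rpl10l is at chr12:66284382-66284451 (minus), Rpl39l at chr16:10170178-10170247 (plus) and Rps27l at chr9:66946036-66946105 (plus). In Rplp2 the run of 10 bases began 5 bases before the annotated start. In Rps12 the run of 11 bases began at the ninth base from the annotated start, and in Rpl39l the run of 9 bases ended before it.

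Levels are given in FPKM, a count of sequenced fragments corrected for transcript length and library size. Where a gene has several transcripts, the one of highest mean FPKM stands for it. Differences are of log2(FPKM + 1), and a gene is called higher or lower where that difference is at least 1 in size, which is termed the size rule. There is no replicate in any group, so no difference below has a spread or a test. ES Eed KO and EB Eed KO are the names of libraries: Eed mRNA was 72.3 in ES wild type, 77.8 in ES Eed KO, 25.04 in EB wild type and 21.8 in EB Eed KO, so it does not check those labels and directions rest on the labels alone. Setd2 had 16.8 in shCtrl and 2.59 in shSetd2.

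How the table divides reads bears on 4 members and has to be read before their values. At the loci of Rpl26, Rpl30, Rpl34 and Rps27, the table also lists a retrocopy, a processed copy of the parent's messenger RNA, and gives the copy nearly all of the FPKM. Rpl26, a large-subunit protein, had 345 in ES wild type, while the transcript of its retrocopy Gm15772, listed at the same place, had 2396. In EB Eed KO, Rpl26 had 23.0 and Gm15772 had 1584. RefSeq places Gm15772 on chromosome 5, whereas the table lists it at the Rpl26 locus on chromosome 11 (mm9, 68715068 to 68718036). The other copies are listed away from their RefSeq chromosomes too: Gm12191 on 15 instead of 11, Rpl34-ps1 on 3 instead of 6 and Rps27rt on 3 instead of 9. Rpl30 had 40.1 in ES wild type beside 1291 for Gm12191, and Rpl34 had 21.5 beside 1618 for Rpl34-ps1. The coding transcript of Rps27 had 51.2 in the ES wild-type library beside 1732 for its retrotransposed copy Rps27rt. It was listed at 0 in each of the other 5, where Rps27rt had 1586 to 2340 and a second, non-coding Rps27 transcript had 4.59 to 17.2. The division between parent and copy therefore shifts between libraries while their sum stays within the range of other members. For this reason a second reading is given throughout, in which transcripts and retrocopies listed at the same locus are summed, leaving 87 genes with Rps27rt counted in Rps27. That reading was chosen after the values were seen. Reads of near-identical copies elsewhere in the genome cannot be separated here either, and Rps15a, with only 74.2 to 118 FPKM, stood beside the left-out copies Rps15a-ps4 at 68.2 to 108 and Rps15a-ps6 at 110 to 144.

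Ribosomal protein transcripts made up a large and similar part of every library. Their genes held 18.4% of the FPKM total in ES wild type, 18.3% in ES Eed KO, 17.0% in EB wild type, 19.3% in EB Eed KO, 20.7% in shCtrl and 18.9% in shSetd2. With same-locus copies summed the shares were 19.7%, 19.4%, 18.4%, 20.8%, 21.9% and 19.9%. The EB wild-type library was the lowest and shCtrl the highest in both readings. Between 52 and 62 of the 100 genes with the highest FPKM in a library were members. The order of the 88 members was also similar between libraries, with Spearman's rho from 0.89 for ES wild type and EB Eed KO to 0.99 for the 2 E14 libraries, given as a description over genes of the same table.

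The highest summed mean belonged to Rplp1, an acidic protein of the stalk that recruits translation factors, with 3739 in ES wild type, 3459 in ES Eed KO, 2026 in EB wild type, 2082 in EB Eed KO, 4466 in shCtrl and 3419 in shSetd2. Rps12, Rps20, Rpl41 and Rps2 followed it. Of the 87 summed genes, 71 had a mean of at least 500, and within these the highest library exceeded the lowest by a median factor of 1.597. That factor was below 2 for 64 of the 71 and reached 2.84 for Rps2. The 16 genes under 500 were Rpl15, Rpl21, Rpl22, Rpl31, Rpl36al and Rpl37, with Rps15a and the paralogues and copies Rpl3l, Rpl10l, Rpl22l1, Rpl32l, Rpl37rt, Rpl39l, Rps4l, Rps23rg1 and Rps27l. Rpl3l, the striated-muscle form of Rpl3, had at most 1.10 in its main transcript and was listed at 0 in EB Eed KO. Small-subunit genes had a summed median of 1480 in ES wild type against 1271 for large-subunit genes, and the ratio of the large to the small median lay between 0.772 in EB Eed KO and 0.925 in shSetd2.

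**Figure D1:**
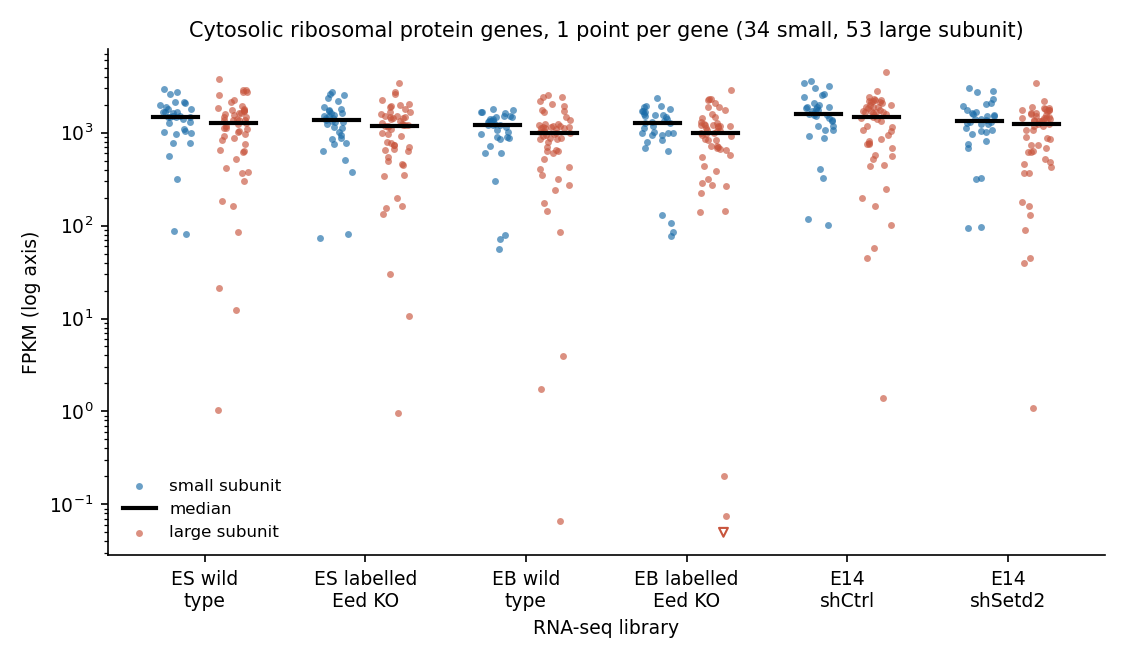
FPKM on a log axis of the 87 ribosomal protein genes, transcripts and same-locus copies summed, in each of the 6 libraries. Each point is a gene, black bars are medians of the 34 small-subunit and 53 large-subunit genes, and the open triangle marks Rpl3l listed at 0. The medians lie between 980 and 1605, with a tail of paralogues and copies that reaches lowest in EB Eed KO.

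Sequencing depth is unknown. The FPKM total ran from 452782 to 598935 per library, and relative depth estimated from the steps of low values lay between 0.796 (EB Eed KO) and 1.22 (shCtrl) with ES wild type at 1. All 8 ES cell markers were at or above 1 FPKM in the 4 ES libraries, with sums of 1482 to 1990, against 117 in EB wild type and 29.1 in EB Eed KO, where 6 of 8 reached it. The 7 neural markers summed to 457 in EB wild type and 15.1 in EB Eed KO, where Map2 was listed at 0, and to between 149 and 188 in ES libraries. The 6 mesoderm and fibroblast markers summed to 914 and 1871 in the same EB libraries and to between 21.8 and 59.2 in ES libraries. Cell makeup thus differed between ES cells and EBs and between the EB libraries along with the ribosomal protein values below, and its part in them was not tested.

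The comparison of EBs with ES cells asks what becomes of the ribosomal protein messages when ES cells differentiate. In wild-type cells most members were slightly lower in EBs. By the size rule, 9 of 87 expressed members were lower and 0 higher. Of all 14772 expressed genes, 33.5% were called, 14.2% lower and 19.3% higher. The members' median difference was -0.33, against 0.02 for all genes, and 84 of the 87 were below 0. The 609 other genes with a mean FPKM of at least 100 had a median of -0.56 with 168 lower, while the 80 members above that level had a median of -0.33 with 4 lower. These genes share only that floor with the members and are not matched to them in abundance. Scaling sets the size of this shift and moves the median of all genes along with it. With equal library totals the members' median was -0.05 and that of all genes 0.26. Upper-quartile scaling gave -0.44 and -0.05, and median-of-ratios scaling gave -0.23 and 0.11. The members' median thus lay below that of all genes under each scaling. Fewer cells of a type and less RNA per cell cannot be told apart in such libraries.

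The 9 lower members were Rpl10l, Rpl26, Rpl30, Rpl34, Rpl39l, Rps2, Rps4l, Rps24 and Rps27. With transcripts and same-locus copies summed, 4 remained lower (13.7% of all genes in that reading), namely Rpl10l, Rpl39l, Rps2 and Rps4l. The other 5 then had differences of -0.17 for Rpl26, -0.47 for Rpl30, -0.15 for Rpl34, -0.17 for Rps24 and -0.13 for Rps27. Their calls rest on how reads were divided between rows.

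Among the 71 members with a summed mean of at least 500, the 5 lowest differences in wild type were those of Rps2, Rps12 and the stalk proteins Rplp0, Rplp1 and Rplp2. Rps2, which lines the entry to the messenger RNA channel, had 2733 in ES wild type, 2728 in ES Eed KO, 1342 in EB wild type, 1193 in EB Eed KO, 3390 in shCtrl and 2718 in shSetd2. Both EB libraries lay below all 4 ES libraries, at a difference of -1.03 in wild type and -1.19 between the libraries labelled Eed KO. Under equal totals these were -0.74 and -0.93, which is short of the size rule.

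Rplp0, the stalk base that anchors Rplp1 and Rplp2, had 1809 and 1658 in the E36 ES libraries, 939 and 841 in EBs, and 2236 and 1636 in shCtrl and shSetd2. Its difference in wild type was -0.95. Rplp2, the partner of Rplp1, had 1744, 1905, 973, 1256, 2224 and 1842 in the same order of libraries, at -0.84, and Rplp1 itself was at -0.88. Rpl12, which lies at the foot of the stalk, had 1740, 1459, 1108, 1209, 2205 and 1700, at -0.65. Both EB libraries were thus the lowest of the 6 for all 4 stalk members, whose median was -0.86 in wild type and -0.67 between the libraries labelled Eed KO. Equal totals left these medians at -0.58 and -0.40. Rps12, a small-subunit protein, had 2975, 2600, 1648, 1708, 3600 and 3028, at -0.85. Rpl8, a large-subunit protein near the peptidyl transferase centre, came next at -0.68, with 1956, 1658, 1218, 1066, 2407 and 1861.

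At the other end, Rpl17, a large-subunit protein near the exit tunnel, had 1126 in ES wild type and 1233 in EB wild type, the highest difference at 0.13, followed by Rpl31 at 0.09 and Rpl38 at 0.03. With transcripts summed Rpl31 was at 0.06 and Rpl38 turned to -0.20. Rpl5 and Rpl11, which with 5S ribosomal RNA form the particle that can bind Mdm2, were close to their ES levels. Rpl5 had 641, 544, 604, 649, 757 and 627 over the 6 libraries, at -0.09. Rpl11 had 1548, 1427, 1358, 1434, 1649 and 1342, at -0.19. The EB values of both lay within the span of the 4 ES libraries.

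Other groupings of the members had medians near that of the family. The 13 small-subunit proteins that bind early to the precursor RNA had a median of -0.28 in EB wild type with 1 lower (Rps24), and the 8 proteins of the messenger RNA channel had -0.40 with 1 lower (Rps2). The 18 genes mutated in Diamond-Blackfan anaemia, an inherited failure of red cell production, had a median of -0.30 with 2 lower, Rps24 and Rpl26, whose calls ended on summing. Small-subunit and large-subunit members both had medians of -0.33.

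Between the libraries labelled Eed KO, 0 members were higher and 8 lower from ES cells to EBs, where 38.3% of all genes were called, 18.5% lower and 19.7% higher. The members' median of -0.15 turned to 0.12 with equal totals and to 0.04 with median-of-ratios scaling. Its direction is therefore not fixed by these data. The median of all genes was -0.03 as deposited, 0.17 with equal totals and 0.12 with median-of-ratios scaling. With copies summed, 5 members were lower (18% of all genes), Rpl10l, Rpl39l, Rps2, Rps4l and Rps27l.

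Genes that build ribosomes were further below their ES levels than the ribosomal proteins themselves. Of 58 expressed biogenesis factors, 0 were higher and 51 lower in EB wild type, with a median of -1.45, and 52 were lower between the libraries labelled Eed KO, with -1.76. With equal totals these counts were 39 and 46. Rrp9, a component of the U3 particle that cleaves the precursor RNA, had 85.7 in ES wild type and 14.7 in EB wild type, and Heatr1, a processome protein, had 59.5 and 11.5. For RNA polymerase I and its factors, 9 of 18 were lower in wild type (median -1.03) and 14 between the libraries labelled Eed KO (-1.37). Equal totals left 4 lower (median -0.76) and 11 lower (-1.12). Polr1b, its second-largest subunit, had 41.3 and 8.75 in wild type.

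Mitochondrial ribosomal proteins had 7 lower of 78 in wild type (median -0.49) and 34 lower between the libraries labelled Eed KO (-0.89). With equal totals 1 was higher and 3 lower in wild type (median -0.22), and 22 were lower between the libraries labelled Eed KO (-0.64). The 20 translation factors and related proteins with TOP messages had 1 higher, the filament gene Vim, and 4 lower (median -0.49), with Npm1, which also acts in ribosome assembly, at 2667 and 967. Chaperones and modifiers of ribosomal proteins had 7 lower of 13 (median -1.02), with Grwd1, which escorts Rpl3, at a difference of -2.22. Of 18 regulators, 7 were lower, Mycn among them at 110 and 24.0. With equal totals, the wild-type counts were 1 higher and 1 lower for the TOP factors, 4 lower for the chaperones and modifiers, and 2 higher and 4 lower for the regulators. Fau and Rack1, core ribosomal proteins outside the naming rule, were not called, with differences of -0.09 and -0.26.

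**Figure D2:**
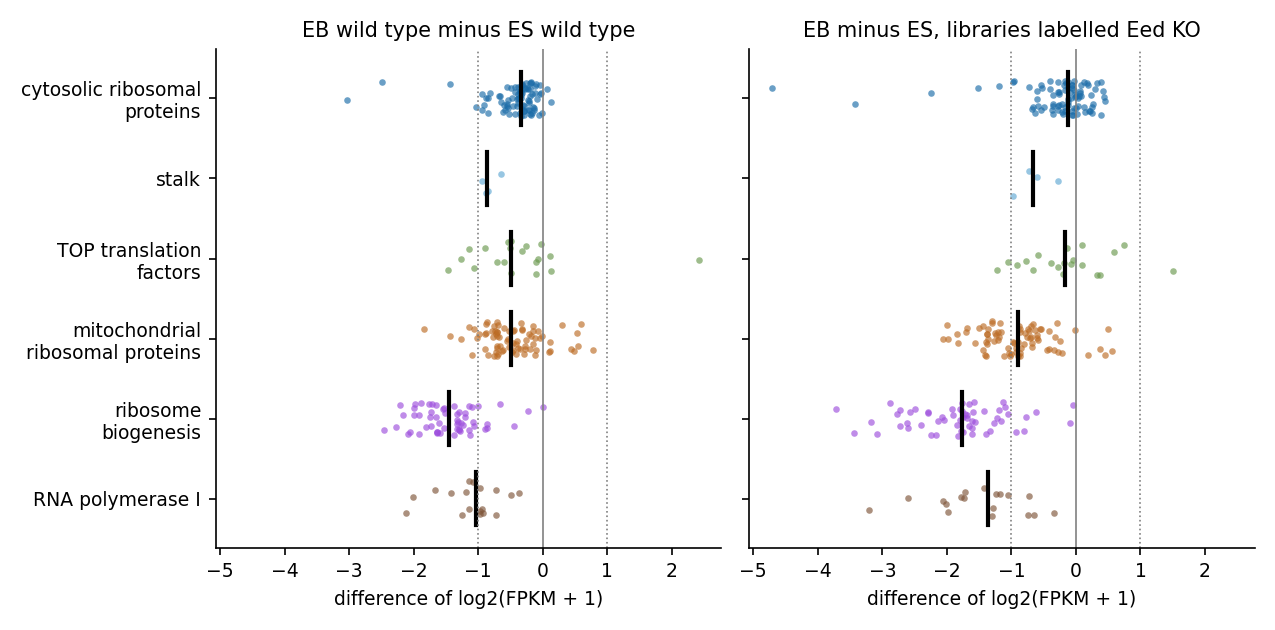
Difference of log2(FPKM + 1) between EBs and ES cells, in wild type (left) and between the libraries labelled Eed KO (right), for ribosomal proteins (87 genes, same-locus copies summed) and for related lists. Each point is a gene, thick bars are medians and dotted lines mark the size rule at 1 and -1. Ribosome biogenesis sits furthest left, at medians of -1.45 and -1.76, and the ribosomal proteins at -0.33 and -0.13.

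Rps24, a small-subunit protein whose message is known to be alternatively spliced near the end of its coding sequence, kept its summed level while its transcripts exchanged places. Summed over 3 listed transcripts (mm9 chromosome 14, 25309903 to 25315368), it had 1011 in ES wild type, 949 in ES Eed KO, 898 in EB wild type, 941 in EB Eed KO, 1382 in shCtrl and 1068 in shSetd2. The transcript NM_207634 held 71.8% of that sum in ES wild type and 78.4% in ES Eed KO, but 6.18% in EB wild type and 4.83% in EB Eed KO, with 74.0% in shCtrl and 81.6% in shSetd2. NM_011297 moved the opposite way, from 24.97% and 19.5% to 83.0% and 89.1% in EBs, with 24.5% and 16.8% in the E14 libraries. All 4 ES libraries stood on one side and both EB libraries on the other, with no overlap. In FPKM, NM_011297 went from 253 in ES wild type to 746 in EB wild type, and NM_207634 from 726 to 55.5.

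A change of this size was uncommon in the table. Of 648 genes with several transcripts and a summed FPKM of at least 20, 8 (1.23%) changed a transcript's share by at least 50 percentage points between ES and EB wild type. Rps24, at 65.6 points, was the only 1 of 8 members in that set to do so. The members' median change was 6.39 points and that of all such genes 6.20. The shares are the output of the authors' software, which assigns reads between overlapping transcripts, and no junction reads are at hand to check them.

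**Figure D3:**
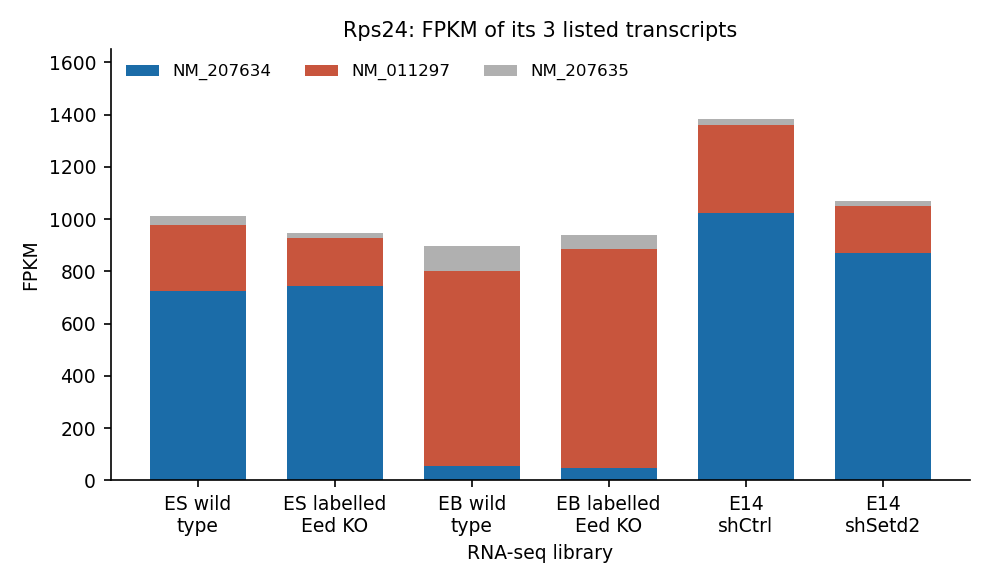
FPKM of the 3 listed Rps24 transcripts, stacked, in the 6 libraries. NM_207634 makes up most of the bar in the 4 ES libraries (71.8% to 81.6%) and NM_011297 in the 2 EB libraries (83.0% and 89.1%), while the full height of the E36 bars stays between 898 and 1011.

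Some paralogues, duplicates that can stand in for a core member, varied more than any abundant member, namely Rpl10l, Rpl39l, Rps4l and Rps27l. Rpl36al and Rpl22l1 did not, as their highest library exceeded the lowest by factors of 2.17 and 2.30, below the 2.84 of Rps2. Nor did Rpl37rt, Rps23rg1 and Rpl32l, at 142 to 199, 70.9 to 101 and 84.4 to 139 in the summed reading. Rpl10l, a retrogene of Rpl10 known for its role in male germ cells, had 21.4 in ES wild type, 30.5 in ES Eed KO, 1.74 in EB wild type, 0.203 in EB Eed KO, 44.6 in shCtrl and 45.1 in shSetd2. Every ES library lay above both EB libraries. The difference was -3.03 in wild type and -4.71 between the libraries labelled Eed KO. Its share of the Rpl10 and Rpl10l sum was 1.503% in ES wild type, at most 3.01% in any library, and 0.16% in EB wild type.

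Rpl39l, the testis-enriched form of Rpl39, had 12.4 and 10.6 in the E36 ES libraries, 3.96 and 0.0749 in EBs, and 57.5 and 39.2 in shCtrl and shSetd2. Its EB values were the lowest of the 6, and it was also lower by the size rule in EB Eed KO than in EB wild type, at -2.21. Rps4l, the copy of Rps4x that the table lists as a non-coding transcript on chromosome 6, had 316, 510, 55.4, 106, 404 and 319. Its share of the Rps4x and Rps4l sum was 17.6% and 28.3% in E36 ES cells, 3.97% and 6.47% in EBs, and 18.2% and 16.4% in the E14 libraries. Again all ES libraries exceeded both EB libraries.

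Rps27l, a p53-inducible form of Rps27, had 562, 377, 301, 131, 326 and 321 in the same order. EB Eed KO was the lowest and ES wild type the highest, and the difference in EBs of -1.20 passed the size rule. Trp53, the gene of p53, had 284, 76.2, 70.7, 0.157, 75.1 and 65.9 in that order, summed over its transcripts. Its part in the Rps27l values was not tested. Rpl22l1, the form that shares its RNA-binding role with Rpl22, had 301, 197, 239, 271, 161 and 131. It held 62.1% of the Rpl22 and Rpl22l1 sum in ES wild type and 54.6% to 57.6% in the other E36 libraries. The E14 libraries had 39.6% and 41.9%, without overlap. Only the E14 libraries had lentivirus and puromycin selection, so line and that treatment cannot be told apart. Rpl36al, a copy of Rpl36a, had 621, 460, 352, 286, 564 and 514, with both EB libraries lowest.

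**Figure D4:**
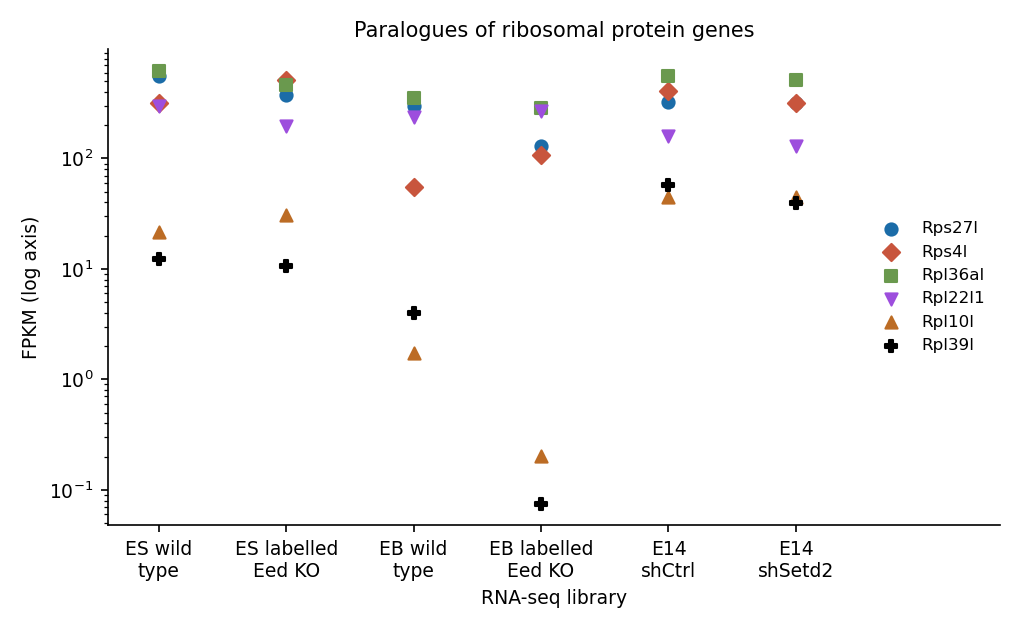
FPKM on a log axis of 6 paralogues in each library, 1 point per gene and library. All of them but Rpl22l1 are lower in both EB libraries than in all 4 ES libraries, with Rpl10l and Rpl39l at 0.203 and 0.0749 in EB Eed KO.

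The Eed comparisons ask what loss of this Polycomb subunit does to the same genes. In ES cells almost no member moved by the size rule. Of 87 members, 0 were higher and 1 lower (5.84% of all genes called, 2.82% higher and 3.01% lower), and the lower one was Rps27, whose coding transcript was listed at 0 beside its copy as given above. With copies summed, 0 members were called (5.56% of all genes). The median was -0.15, against -0.03 for all genes. With equal totals it was -0.01, against 0.06 for all genes. Against shCtrl instead of ES wild type, the median was -0.31, against 0.06 for all genes. Of 12805 expressed genes, 701 were higher and 494 lower there. The lower member was then Rpl39l, with 57.5 in shCtrl and 10.6 in ES Eed KO, in place of Rps27. That comparison sets line E36 against line E14, which alone had lentivirus and puromycin selection. Line, that treatment and Eed label cannot be told apart in it. Rpl39l had 12.4 in E36 ES wild type.

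In EBs, 0 members were higher and 4 lower (17.5% of all genes called, 7.68% higher and 9.82% lower). These were Rpl10l, Rpl39l, Rps27l and Rpl26. With copies summed 3 were lower (9.51% of all genes) and Rpl26 was at -0.60. The members' median was 0.07, against -0.14 for all genes and -0.33 for other genes with a mean of at least 100. It was 0.19 to 0.25 under the 3 other scalings, where the median of all genes was -0.05 to -0.01. The difference of the Eed differences, EBs minus ES cells, had 1 member higher, Rps27, and 3 lower (19.2% of all genes called, 9.13% higher and 10.1% lower). After summing, 0 were higher and 2 lower (18.6% of all genes called), Rpl10l at -1.68 and Rpl39l at -1.99.

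The differences within the size rule sorted by the chromosome on which a member lies. The 7 members on chromosome 11 (Rpl19, Rpl23, Rpl23a, Rpl26, Rpl27, Rpl38 and Rps27a) were all lower in both libraries labelled Eed KO. With copies summed, their differences ran from -0.80 to -0.53 in ES cells (median -0.68) and from -0.76 to -0.15 in EBs (median -0.41). The main transcript of Rpl19 had 1963 in ES wild type, 1251 in ES Eed KO, 1501 in EB wild type, 870 in EB Eed KO, 1459 in shCtrl and 1196 in shSetd2. Rpl23a had 2874, 1984, 2445, 1885, 2190 and 1748. In both genes each library labelled Eed KO was below its wild-type partner, and both E14 libraries were below ES wild type.

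Members on chromosome 6 went the other way. Rpl32, a large-subunit protein, had 1851, 2766, 1722, 2913, 2122 and 1760, at 0.58 in ES cells and 0.76 in EBs. Rps4l was at 0.69 and 0.93, and the median of both genes was 0.63 and 0.84. Rpl32l, a copy of Rpl32 listed on chromosome 10, moved with it at 0.64 and 0.72, and reads of such near-identical copies cannot be told apart. On chromosome 3 the summed Rps27, Rpl34 and Rps3a1 were above 0 in both comparisons, and Rpl22l1 was at -0.61 in ES cells and 0.18 in EBs, so that the medians of the 4 were 0.27 and 0.38. The sums of Rps27 and Rpl34 consist nearly wholly of Rps27rt and Rpl34-ps1, and that of Rpl26 on chromosome 11 of Gm15772, which RefSeq places on other chromosomes, so the chromosome of these 3 values is uncertain. The 74 members elsewhere had medians of -0.13 and 0.07. With equal totals the first of these was 0.0046, with 37 genes above 0 and 36 below.

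All genes with an FPKM of at least 5 shifted in the same directions on these chromosomes. Their medians were -0.52 in ES cells and -0.72 in EBs over 953 genes of chromosome 11, 0.44 and 0.34 over 533 genes of chromosome 6, and 0.29 and 0.40 over 561 genes of chromosome 3. The directions of the members on chromosomes 6 and 11, and of the chromosome 3 members as given, held under the 3 other scalings, with Rps27a in EBs as the exception at 0.02 under upper-quartile and median-of-ratios scaling. What part the chromosome-wide shift has in the members' values was not tested. Members on chromosome 11 also stood apart between shCtrl and E36 ES wild type, which differ in line and in lentivirus and selection. There its 7 members were between -0.52 and -0.35, while the 74 members off chromosomes 3, 6 and 11 had a median of 0.21. Since both comparisons share the ES wild-type library, these values are given side by side only.

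**Figure D5:**
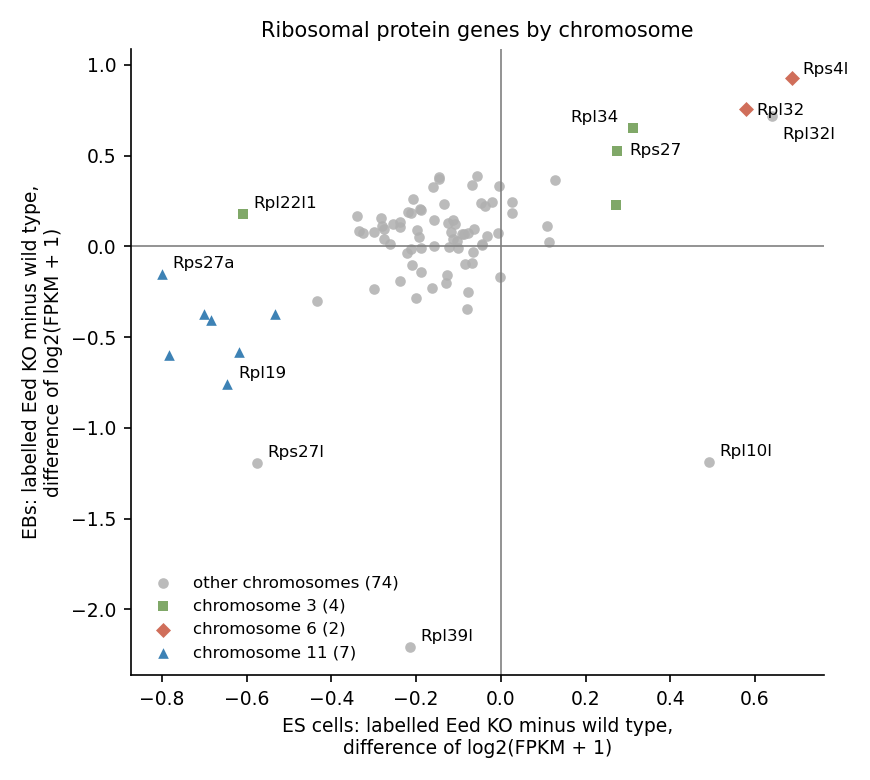
Difference of log2(FPKM + 1) between the library labelled Eed KO and wild type in ES cells (horizontal) and EBs (vertical), 1 point per ribosomal protein gene, same-locus copies summed. The 7 genes on chromosome 11 lie below 0 on both axes, Rpl32 and Rps4l on chromosome 6 lie above 0 on both, and Rpl10l, Rpl39l and Rps27l are set apart on the vertical axis at -1.20 or lower.

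The Setd2 comparison asks what a reduced histone H3 lysine 36 methyltransferase does in E14 ES cells. In shSetd2, 0 of 87 members were higher or lower than in shCtrl, where 2.41% of all genes were called, 0.706% higher and 1.7% lower. With copies summed the member count was again 0 (2.02% of all genes). The members' median was -0.29, against -0.13 for all genes, and 86 of 87 were below 0. Equal totals, upper-quartile and median-of-ratios scaling brought the members' median to -0.13, -0.10 and -0.12. They brought the median of all genes to 0.003, 0.03 and 0.01. The lowest was Rpl39l at -0.54. Rpl10l at 0.01 was the only member above 0.

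Between the control ES cells of the 2 lines, 2 members were higher and 1 lower in E14 (8.79% of all genes called, 3.14% higher and 5.65% lower). With copies summed, 2 were higher (2.96%) and 0 lower. The higher ones were Rpl39l, at 2.12, and Rpl10l, at 1.03, and the lower one was Rps27, whose call ended on summing. Rpl13a, with 1235 in ES wild type and 1829 in shCtrl, had the highest difference among members of at least 100 FPKM, at 0.57, and Rpl22l1 the lowest, at -0.90. The members' median was 0.19, and each line is represented by 1 control library. Only the E14 control had lentivirus and puromycin selection, so line and that treatment cannot be told apart.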

How the data were processed

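The authors deposited 1 table of FPKM values for 26439 coding and 3412 non-coding RefSeq transcripts in the 6 RNA-seq libraries. Per the submitters' processing notes it was made with TopHat and Cuffdiff on mm9, and no version, option or scaling is recorded there. Per the labels' protocols, Trizol RNA went through the TruSeq RNA v2 kit, a poly(A) method without strand information. The 12 ChIP-seq samples were not analysed here.

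Accessions were matched to symbols through a RefSeq table of GRCm38.p6, for 29300 transcripts (551 unmatched). Coordinates of table rows are those deposited, on mm9 and written from 1. They span a whole locus, which can hold several genes. Genes reaching an FPKM of 1 in any of the 4 E36 libraries, or in either library compared where E14 was involved, counted as expressed. The pseudocount of 1 understates changes of weakly expressed genes. The 7 comparisons set 1 library against 1, without test or p-value. The size rule was tested on ES wild-type values with known factors planted in them. Of the scalings, only that to equal totals was checked with a planted factor. Alternatives were a pseudocount of 0.1, other filters, scalings, transcript handling and size rules, and leaving out members on chromosomes 3, 6, 11 and Y. Named members are those called in any comparison, the 3 highest and 3 lowest of each as far as printed, and those of role lists. Some values under this rule are not reported here. Rpl8, Rpl13a, Rpl23a and Rps15a were chosen after their values were seen. Members and lists were chosen with earlier results of these data known. Python 3.11.15, pandas 2.3.3, numpy 2.4.6 and matplotlib 3.10.9 were used.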

Additional observations from a re-analysis of the deposited data

How the results depend on the processing

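No paired analysis was possible because each group holds 1 library. Without replicates, no value has an error, and differences that rest on 1 library each cannot be separated from variation between cultures. Of 251 recomputed counts, medians and shares, 197 stayed near the reported value (a median within 0.1, a count or share within 1.5 times), 52 moved and 2 turned direction. For single members and paralogue shares, 267 of 292 stayed, 21 moved and 4 turned. Depth is unknown, so no counting error can be given. Causes were not tested except where summing joins divided rows.

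Rescaled to equal totals, ES Eed KO against ES wild type had 0 members lower and a median of -0.0077. EB Eed KO against EB wild type had 2 higher (1380 of 14877 genes) and a median of 0.19. EB against ES cells had a median of -0.047 in wild type. Between the libraries labelled Eed KO it had 1 higher and a median of 0.12, which turned direction, as did the 0.041 under median-of-ratios scaling. The median for shSetd2 was -0.13, and shCtrl against E36 ES wild type had 0 lower (634 of 12511 genes). Under upper-quartile and median-of-ratios scaling, EB Eed KO against EB wild type had 1 higher in each, with medians of 0.25 and 0.24. The difference of the Eed differences then had medians of 0.29 and 0.29, shSetd2 had -0.10 and -0.12, and the lines 0.32 and 0.30. EB against ES wild type had -0.44 under the upper quartile.

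With transcripts and same-locus copies summed, an alternative chosen after seeing the data, lower members numbered 0 in ES Eed KO, 4 in EB wild type against ES, 5 in EB Eed KO against ES Eed KO and 0 between the lines, and 0 were higher in the difference of the Eed differences. Rps27 turned to 0.27 in ES Eed KO and 0.070 between the lines, and Rpl26 to 0.014 in EB Eed KO against ES Eed KO and 0.18 in the difference of the Eed differences. Summing transcripts alone gave 1 higher in EB Eed KO against EB wild type, where 1114 of all 14848 genes were higher. It also gave 1 higher in EB Eed KO against ES Eed KO, where 2918 of 14848 were.

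With every transcript on its own, the counts were 2 lower in ES Eed KO (3.61% of all transcripts lower), 1 higher and 7 lower in EB Eed KO (7.98% and 10.9%), 2 higher and 14 lower in EB against ES wild type (19.9% and 13.9%), 3 higher and 14 lower in EB Eed KO against ES Eed KO (19.7% and 18.2%), 2 higher and 5 lower in the difference of the Eed differences (9.8% and 11.7%), and 2 lower between the lines (6.39%). Without members on chromosomes 3, 6, 11 and Y, 0 were lower in ES Eed KO (444 of 14758 genes). Lower members were then 5 in EB against ES wild type (2096 of 14758) and 0 between the lines (719 of 12733). In the difference of the Eed differences 0 were higher (1348 of 14758). At a size rule of 0.5, counts were 3 higher and 10 lower in ES Eed KO (24% of all genes called), 5 and 8 in EB Eed KO (43.7%), 27 lower in EB against ES wild type (60.3%), 20 lower in EB Eed KO against ES Eed KO (64.6%), 6 and 5 in the difference of the Eed differences (45.6%), 1 lower in shSetd2 (13.1%) and 5 and 3 between the lines (30.7%). With shCtrl of line E14 as control for ES Eed KO the median was -0.31.

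Over all genes, scaling moved the split of calls. In ES Eed KO it was 417 higher and 445 lower, and 508 and 321 with equal totals. In EB wild type against ES it was 2855 and 2100, and 3585 and 1454 with equal totals, and in EB Eed KO against ES Eed KO 2913 and 2738, and 3603 and 2078. In EB Eed KO against EB wild type it was 1135 and 1450, 1392 and 1099 by the upper quartile, and 1433 and 1152 by median of ratios. In shSetd2 it was 87 and 210, and 141 and 162 by the upper quartile. Between the lines it was 400 and 720, and 488 and 567 by the upper quartile. A pseudocount of 0.1 raised the calls to 937 and 887 in ES Eed KO, to 204 and 366 in shSetd2 and to 654 and 1223 between the lines.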
